A study of Rattus norvegicus with 12 samples.

Results

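β-Aminoisobutyric acid (BAIBA) was compared with no supplement in failing rat hearts, gene by gene and function by function, in RNA-seq of the left ventricle. The members are all rats of these groups, 3 HF rats given BAIBA (the BAIBA group) and 3 sedentary HF rats given none (the HF group), which makes 6 of the 12 rats of the series. All 6 were male Sprague-Dawley rats whose left anterior descending coronary artery had been ligated at 8 weeks of age, so both groups carried the infarct. By the study's methods the BAIBA rats received 75 mg/kg/day by gavage in water for 8 weeks, the HF rats received the same volume of water, and the hearts were taken 12 weeks after surgery. A supplement to the study says instead that BAIBA was given to the Sham and HF groups, and the sources used here do not settle this, so the groups are taken as GEO's labels name them. The other 6 rats, a Sham group whose artery was threaded without ligation and an HFE group of HF rats that were exercised, appear below only as levels set beside those of the 6 rats compared. The tissue came from the anterior left ventricular wall. The study's methods name the area around the infarct for the BAIBA group alone, whereas another passage of the study gives it for HF and BAIBA rats alike, so a difference in the site of sampling and the supplement cannot be told apart. BAIBA is a metabolite, so no targeted gene in the counts checks the labels.

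BAIBA is a non-protein amino acid that contracting muscle releases when it breaks down valine, and it also arises from thymine. It is known for browning of fat and for fatty acid oxidation in liver, and it is a ligand of the receptor Mrgprd. A ventricle that fails after infarction is known to re-express fetal and load-responsive genes such as those of the natriuretic peptides, to move its fuel use away from fatty acids, and to build a scar of collagen.

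The libraries held 16152243 to 19732588 counts each, and transcripts of the mitochondrial genome took 30.4% to 36.0% of them. Levels are given as CPM, that is, counts relative to the library size, scaled by the trimmed mean of M values. All 9 cardiomyocyte markers found in the table were at 1 CPM or more in every rat, and their summed level was 39813, 41558 and 40763 CPM in HF rats 1 to 3 and 38552, 46360 and 45904 CPM in BAIBA rats 1 to 3. The labelled heart muscle therefore carried its defining genes in all 6 libraries. Some genes that heart muscle uses were nevertheless at or near 0. Among them were Cox7a1 (0.128 to 0.837 CPM), Gpx4 (0.0613 to 0.636 CPM) and Rplp2 (0 in all 6 rats), which were picked after their values were seen. A low count in this table therefore does not show low expression.

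In each group 1 library stood apart the most. In HF rat 1, genes of developing T cells, a list chosen after seeing the data, summed to 682 CPM against 8.4 to 16.1 CPM in the other 5 rats. Rag1, which cuts the antigen receptor genes in immature lymphocytes, was at 288 CPM there and at 0 to 0.0641 CPM in the other 5. The T and NK cell markers summed to 349 CPM in HF rat 1 and to 28.8 to 56.3 CPM in the others. In BAIBA rat 1, the macrophage and monocyte markers summed to 1028 CPM against 159 to 243 CPM, and their most abundant gene there, the lysozyme gene Lyz2, was at 758 CPM against 44.9 to 61.5 CPM. The same library had the highest sums of activated fibroblast markers (155 CPM against 23.4 to 51.5 CPM), mesothelial markers (128 CPM against 30.5 to 52.6 CPM) and mast cell markers (83.9 CPM against 19.6 to 35.9 CPM). Atrial myocyte markers summed to 154, 593 and 681 CPM in the HF rats and to 324, 132 and 115 CPM in the BAIBA rats, so these groups overlapped. In bulk tissue, fewer cells of a type and less RNA per cell cannot be told apart. List counts whose majority turned, and list medians that moved by more than the SD between rats, without HF rat 1 or without BAIBA rat 1 are given with and without that rat below.

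**Figure D1:**
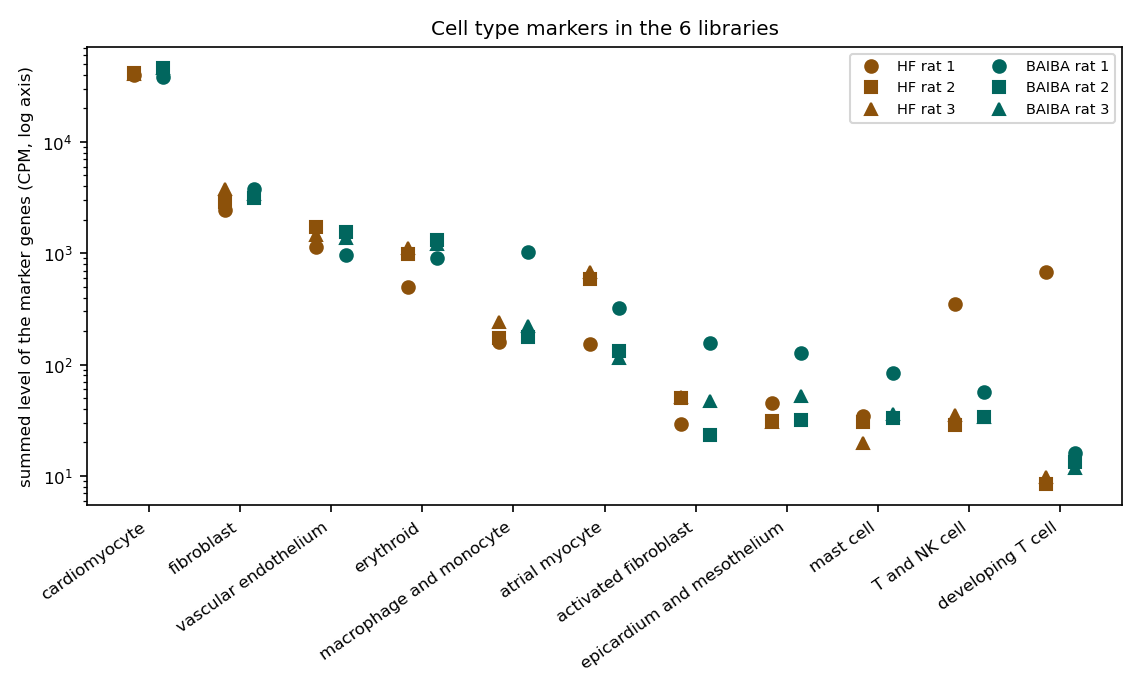
Summed level of each cell type's marker genes in the 6 libraries, in CPM on a log axis, 1 point a rat, HF rats in brown and BAIBA rats in green. HF rat 1 lies at 682 CPM for developing T cell genes, and BAIBA rat 1 at 1028 CPM for macrophage and monocyte genes, each far above the other 5 rats.

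No gene differed between BAIBA and HF by the test fixed for the comparison. Of 15039 genes tested with edgeR's quasi-likelihood fit, 0 had an adjusted p under 0.05 with an absolute log2 fold change over 1, which is 0% of those tested. The lowest adjusted p was 0.0789, that of Tma7. At an unadjusted p under 0.05 there were 834 genes (5.55%), of which 423 were higher with BAIBA (2.81%) and 411 lower (2.73%). The levels of the 3 BAIBA rats did not overlap those of the 3 HF rats in 1711 genes (11.4%), 904 of them higher (6.01%) and 807 lower (5.37%). For each such gene the two-sided exact permutation test on log2(CPM + 0.1) gives p = 0.1, the smallest that 3 rats against 3 allow. The median log2 fold change of all genes tested was -0.01, with the middle of the distribution between -0.17 and 0.15, and 48.1% of genes were higher with BAIBA. DESeq2, the tool named in the study's methods, called 29 of the 18039 genes to which it gave an adjusted p (0.161%), 11 higher and 18 lower. Of these, 15 carry a gene symbol that is no placeholder. The log2 fold changes below are those of the edgeR fit, with their standard error (SE), and are BAIBA against HF throughout.

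The genes lower with BAIBA that had the smallest p come first. Except for Myl7 and Fuom, the leading genes were chosen for no overlap between the groups. Their lack of overlap is therefore no result, and 11.4% of all genes tested showed it. Ncbp2, a subunit of the nuclear cap-binding complex, was at 6.13, 5.40 and 5.56 CPM in HF rats 1 to 3 and at 0.39, 0.257 and 0.724 CPM in BAIBA rats 1 to 3. The log2 fold change was -3.62 (SE 0.38), with an adjusted p of 0.121 by edgeR and 2.92e-11 by DESeq2. Ncbp2 was also on or off among rats of other groups, at 4.44, 0.713 and 0.328 CPM in the Sham rats and 0.732, 0.485 and 0.317 CPM in the HFE rats, so its level was not shared by the rats of the Sham group either.

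Phlda1, a pleckstrin homology domain gene responsive to growth factors and stress, was at 42.5, 60.4 and 69.4 CPM in the HF rats and at 26.5, 27.1 and 27.2 CPM in the BAIBA rats. Its log2 fold change was -1.09 (SE 0.17, adjusted p = 0.474 by edgeR and 0.000149 by DESeq2). Slc41a3, a magnesium transporter of mitochondria, was at 43.1, 73.6 and 66.9 CPM against 24.9, 26.0 and 29.2 CPM. In both genes the 3 BAIBA rats lay close together and below every HF rat, and HF rat 1 was the lowest of its group. Without HF rat 1, the edgeR fit called both, Phlda1 at -1.27 and Slc41a3 at -1.39, each with an adjusted p of 0.0393.

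Tent5c, which adds poly(A) tails to mRNAs of secreted proteins, was at 6.82, 13.5 and 8.31 CPM in the HF rats against 2.90, 3.14 and 3.20 CPM with BAIBA, a log2 fold change of -1.63 (SE 0.28). Cpne1, a calcium-dependent membrane-binding copine, was at 4.13, 5.83 and 5.67 CPM against 0.892, 1.92 and 0.663 CPM (log2 fold change -2.17, SE 0.42). DESeq2 gave adjusted p-values of 0.0018 for Tent5c and 0.00307 for Cpne1, where edgeR gave 0.577 and 0.722. The groups did not overlap in either gene. Chid1, a chitinase-domain gene, was at 4.70, 2.45 and 3.65 CPM in the HF rats and 0.279, 0 and 0.482 CPM with BAIBA, and the Sham rats were likewise low at 0.0577, 0.324 and 0.263 CPM.

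Cep164, needed for building cilia, was lower by a log2 fold change of -0.84 (SE 0.15) and Kif17, a motor of ciliary transport, by -1.82 (SE 0.33). Cep164 stood at 38.1, 48.8 and 36.1 CPM in the HF rats against 20.1, 24.2 and 24.5 CPM. Kif17 stood at 1.84 to 2.29 CPM against 0.502 to 0.663 CPM. Bard1, the partner of Brca1 in DNA repair, had a log2 fold change of -1.61 (SE 0.34), and Hcfc1, a chromatin cofactor that also serves cell cycle genes, one of -0.81 (SE 0.17). Tp53i11, a p53-inducible gene, was at 39.6, 42.6 and 29.6 CPM in the HF rats and 20.6, 23.0 and 20.4 CPM with BAIBA, and the Sham rats were at 21.6, 20.3 and 20.8 CPM. None of these genes overlapped between the groups, and their edgeR adjusted p-values ran from 0.603 to 0.768.

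Myl7, the atrial regulatory myosin light chain, was called by DESeq2 (adjusted p = 0.0131) and not by edgeR (adjusted p = 0.851). It was at 0.745, 2.33 and 19.7 CPM in the HF rats against 0.669, 0.385 and 0.302 CPM, so HF rat 3 alone was high. The log2 fold change of -4.04 ran from -4.97 to -1.74 over the alternatives. Myl7 also varied among the Sham rats (27.3, 11.3 and 40.6 CPM), which were all above the BAIBA rats, and among the HFE rats (32.4, 1.18 and 0.443 CPM). HF rat 3 was also the highest in the sum of atrial markers (681 CPM), of which Nppa alone made 509 CPM. In HF rat 2 the sum was 593 CPM, with Nppa at 454 CPM and Myl7 at 2.33 CPM. The part of atrial tissue in the difference was not tested.

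The genes higher with BAIBA that had the smallest p follow. Ephx2, the soluble epoxide hydrolase that breaks down epoxy fatty acids, was at 25.1, 34.9 and 28.9 CPM in the HF rats and at 48.0, 49.97 and 55.4 CPM in the BAIBA rats. Its log2 fold change was 0.79 (SE 0.14, adjusted p = 0.603 by edgeR). The Sham rats stood at 44.5, 43.3 and 43.0 CPM, between the groups. Hpd, which acts in tyrosine breakdown, was at 19.8, 16.1 and 18.5 CPM against 26.0, 44.4 and 39.7 CPM, a log2 fold change of 1.01 (SE 0.20). Dpep1, a membrane dipeptidase that hydrolyses leukotrienes and glutathione conjugates, was at 9.52, 11.7 and 8.84 CPM against 15.95, 19.4 and 25.1 CPM, also 1.01 (SE 0.20). DESeq2 called the latter pair, at adjusted p-values of 0.00788 for Hpd and 0.0172 for Dpep1, where edgeR gave 0.768 and 0.752.

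Car5b, a mitochondrial carbonic anhydrase, was at 3.61, 2.39 and 2.38 CPM in the HF rats and 9.59, 7.18 and 4.64 CPM with BAIBA (log2 fold change 1.35, SE 0.33). Aspa, which splits N-acetylaspartate, was at 0.975, 1.17 and 1.17 CPM against 2.34, 2.57 and 2.59 CPM (1.18, SE 0.29). Both were higher in all 3 BAIBA rats than in any HF rat. Of the growth factor and receptor genes, Ptn (pleiotrophin) was at 17.7, 14.7 and 12.7 CPM against 22.7, 26.1 and 22.0 CPM. Adgrg6, an adhesion G protein-coupled receptor of heart and nerve development, was at 4.64, 4.85 and 4.50 CPM against 7.70, 8.27 and 7.24 CPM. Nradd, a death-domain receptor-like gene, had a log2 fold change of 1.59 (SE 0.38).

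Fgl2, a membrane prothrombinase with immune roles, was at 27.8, 21.8 and 23.9 CPM against 47.5, 32.7 and 49.4 CPM (log2 fold change 0.82, SE 0.18). Ngdn, a nucleolar protein gene, was at 29.9, 25.9 and 22.8 CPM against 39.1, 38.4 and 38.2 CPM, and the BAIBA rats lay within a narrow range. Rfx4, a winged-helix transcription factor, was at 0.229, 0.0613 and 0.265 CPM against 1.17, 4.36 and 1.27 CPM (3.53, SE 0.74). Fuom, a fucose mutarotase that the edgeR filter left out, was called higher by DESeq2 (adjusted p = 0.000514). Its levels were 0.0573, 0.0613 and 0 CPM in the HF rats and 5.35, 0.577 and 5.25 CPM with BAIBA, but also 1.27, 0.324 and 2.82 CPM in the Sham rats. The HF rats held too few counts for a fold to be given.

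**Figure D2:**
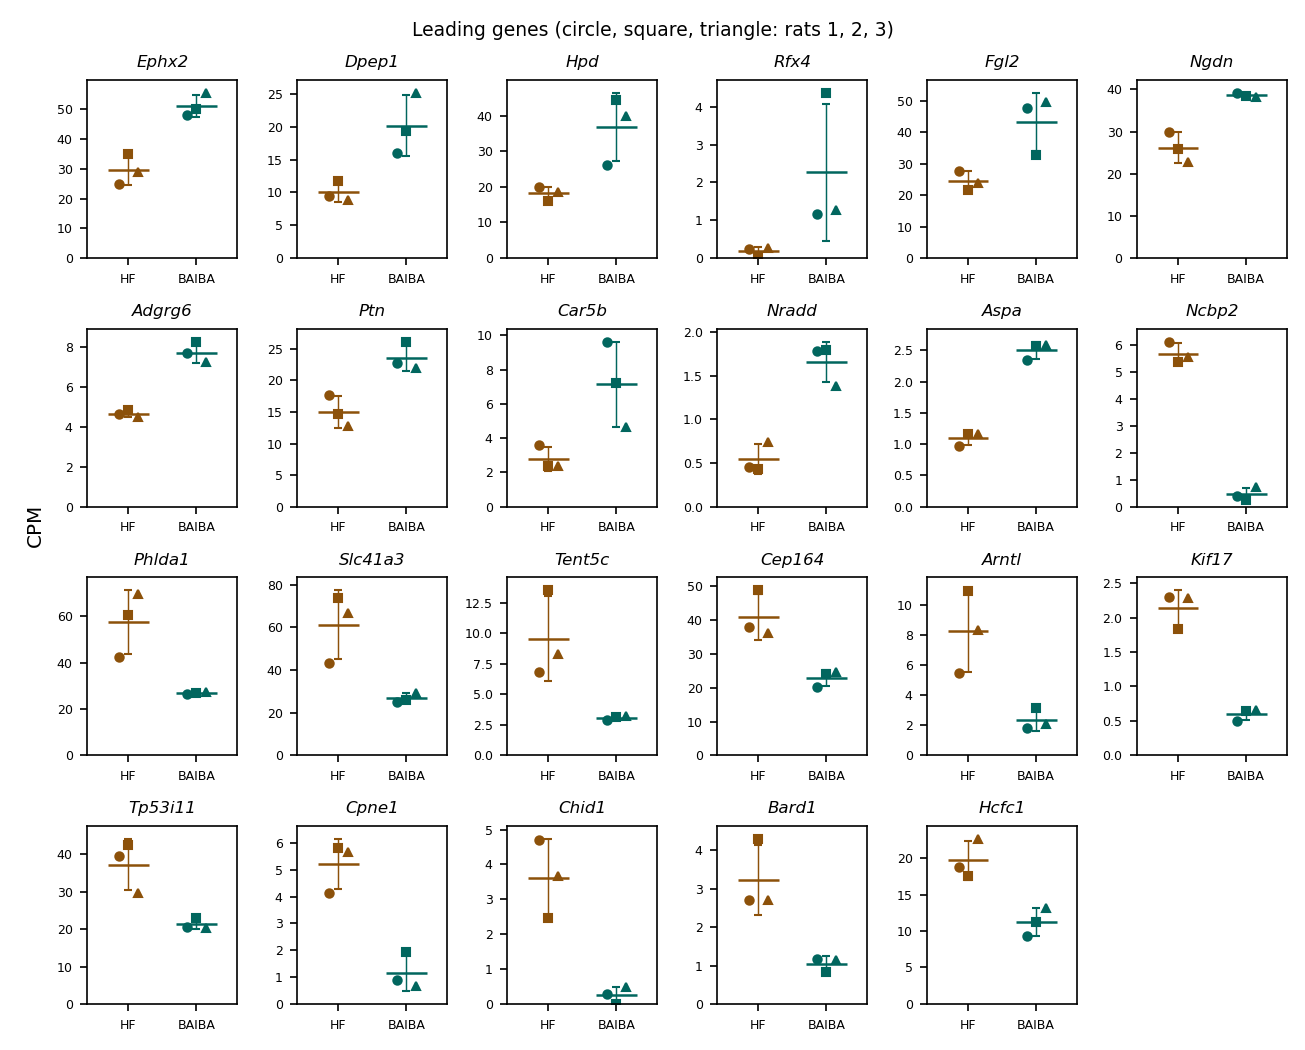
Level in CPM of the leading genes, those higher with BAIBA from Ephx2 to Aspa and those lower from Ncbp2 to Hcfc1, 1 point a rat, with the mean (long bar) and SD (error bars) of 3 rats, HF in brown and BAIBA in green. In each panel every BAIBA rat lies on the same side of every HF rat, as the choice of these genes required. Phlda1 shows the BAIBA rats at 26.5 to 27.2 CPM below HF rats at 42.5 to 69.4 CPM.

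To describe functions, 38 lists of genes were used, each read against the share of all genes tested (48.1% higher, median log2 fold change -0.01). In each list 0 to 4 members in either direction had an unadjusted p under 0.05, and no list member had an adjusted p under 0.05 by edgeR. The highest list medians were those of scar and activated fibroblast genes (0.46) and of class II antigen presentation and complement genes (0.42). The lowest were those of cell cycle and DNA replication (-0.81) and of load-responsive and fetal genes (-0.32). These 4 lists were also read without HF rat 1, without BAIBA rat 1 and without both. The load-responsive list alone then kept a median of that size or further from 0 each time (-0.34, -0.56 and -0.62). Its median lay nearer 0 without BAIBA rat 2 (-0.26), without BAIBA rat 3 (-0.22) and without HF rat 3 (-0.30).

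**Figure D3:**
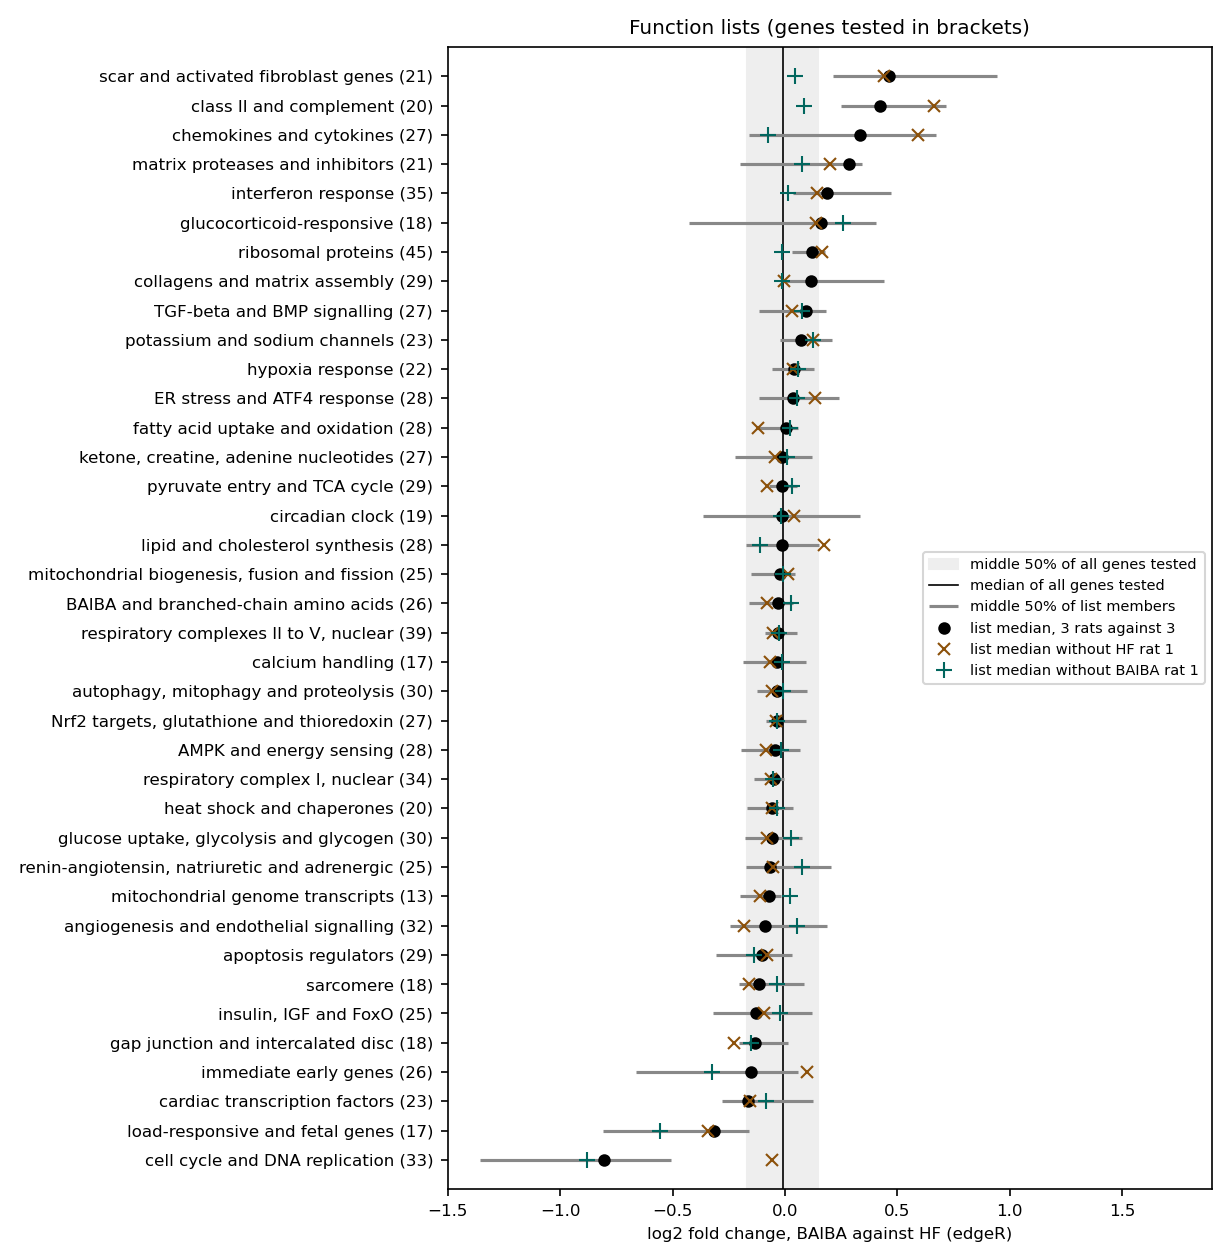
Log2 fold change of BAIBA against HF over each function list, with the median of 3 rats against 3 (dot), the middle 50% of members (line), and the median without HF rat 1 (cross) or without BAIBA rat 1 (plus), beside the median and middle 50% of all genes tested. The scar list lies at 0.46 and moves to 0.05 without BAIBA rat 1, and the cell cycle list lies at -0.81 and moves to -0.06 without HF rat 1.

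**Figure D4:**
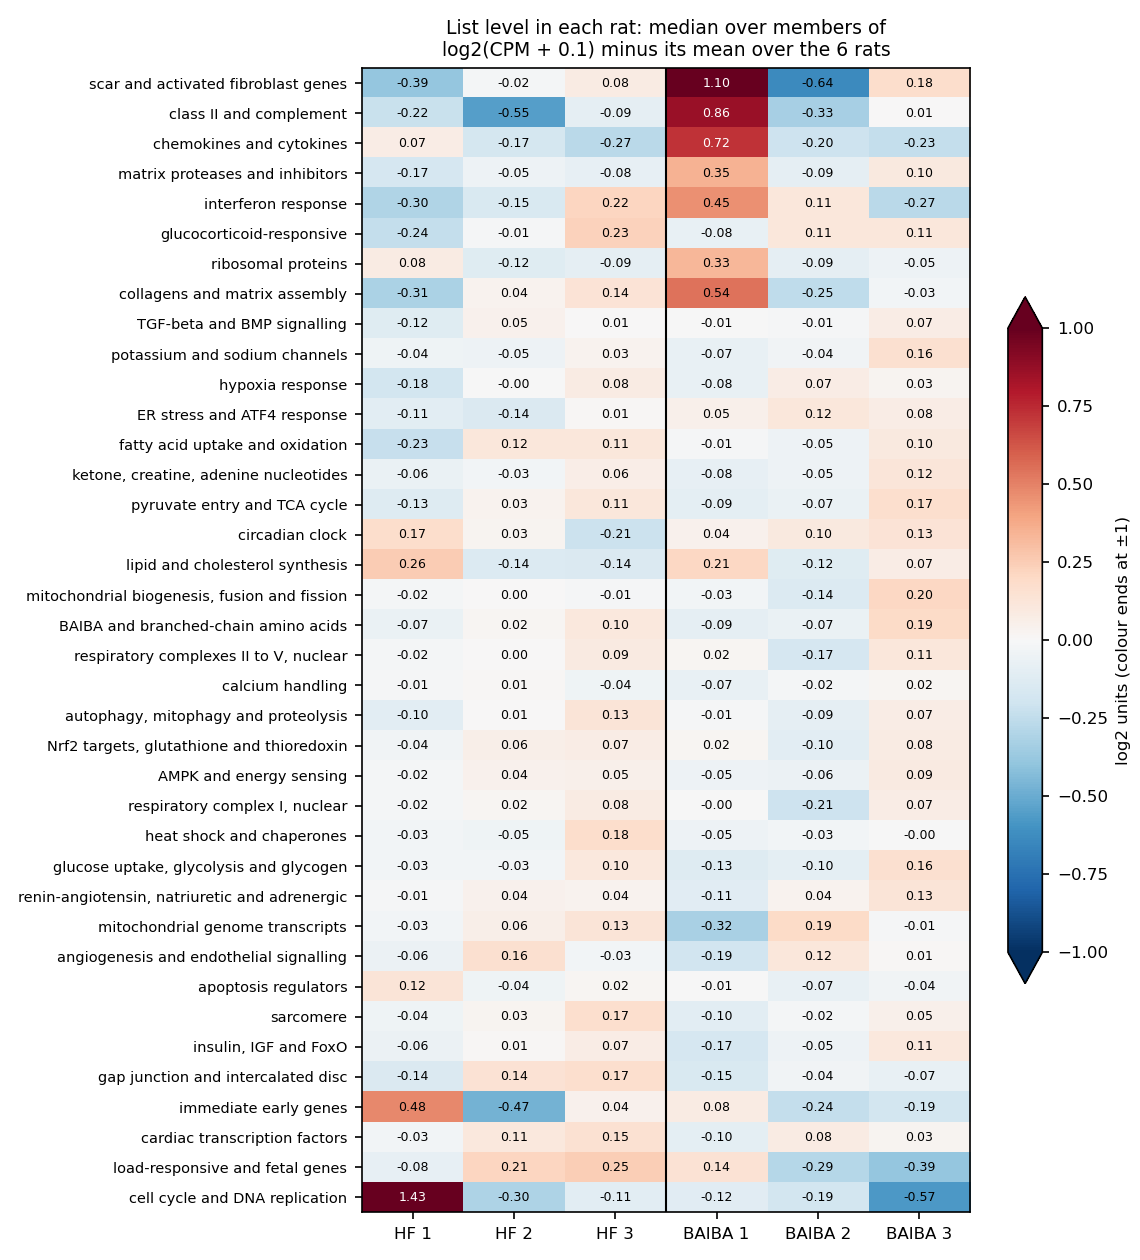
Median over the members of each function list of log2(CPM + 0.1) minus its mean over the 6 rats, in log2 units, 1 column a rat, from blue (lower) to red (higher). HF rat 1 stands at 1.43 for the cell cycle list and BAIBA rat 1 at 1.10 for the scar list, while the load-responsive list is at 0.14, -0.29 and -0.39 in BAIBA rats 1 to 3 and at -0.08, 0.21 and 0.25 in HF rats 1 to 3.

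Of 17 genes that respond to stretch and load, 16 had lower and 1 had higher mean levels with BAIBA (median -0.32), and none passed the adjusted test. An unadjusted p under 0.05 was reached by 3 of the lower ones (17.6% against 2.73% of all genes tested), and the groups did not overlap in 2 (11.8% against 5.37%). The groups overlapped in the list's level, as BAIBA rat 1 lay above HF rat 1. In that level the Sham rats, at -0.02, -0.16 and 0.32, also overlapped the HF rats, at -0.08, 0.21 and 0.25. Nppb, the gene of brain natriuretic peptide and a marker of wall stress, was at 205, 300.5 and 189 CPM in the HF rats and at 109, 36.1 and 83.2 CPM in the BAIBA rats, a log2 fold change of -1.61 (SE 0.41, adjusted p = 0.851 by edgeR). All 3 BAIBA rats lay below all 3 HF rats, and the Sham rats stood at 132, 46.4 and 109.8 CPM. Xirp1, an actin-binding protein of the intercalated disc, was at 209.7, 217 and 217 CPM against 161, 167 and 189 CPM (-0.32, SE 0.10). Its Sham levels were 211, 233 and 223 CPM, in the range of the HF rats or above. Ankrd1, a stretch-responsive cofactor of the sarcomere and nucleus, was at 4981, 5109 and 5344 CPM against 5103, 3739 and 3487 CPM, so BAIBA rat 1 lay among the HF rats. Enah, an actin regulator of the intercalated disc, had a log2 fold change of -0.56 (SE 0.23), with BAIBA rat 1 again among the HF rats at 62.0 CPM. Nppa, the gene of atrial natriuretic peptide, was at 67.7, 454 and 509 CPM in the HF rats and 212, 10.4 and 11.6 CPM with BAIBA, so the groups overlapped. Without BAIBA rat 1 all 17 genes were lower and 6 had an unadjusted p under 0.05, as did 332 lower genes among all 15348 tested in that fit. The sum of atrial markers, to which Nppa and Myl4 of this list also belong, was likewise higher in HF rats 2 and 3 (593 and 681 CPM) than in BAIBA rats 2 and 3 (132 and 115 CPM). That sum was mostly Nppa in HF rats 2 and 3, so it is not separate from the list, and its part in the list was not tested.

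Npr3, the receptor that clears natriuretic peptides, was lower as well, at 8.14, 8.83 and 10.3 CPM in the HF rats against 4.52, 6.16 and 3.98 CPM (-0.90, SE 0.22). Its level was 13.2, 16.7 and 17.3 CPM in the Sham rats, higher than in every HF and BAIBA rat. In the list of renin-angiotensin, natriuretic and adrenergic genes to which it belongs, 10 of 25 were higher and 15 lower (median -0.07), against 14 higher and 11 lower without BAIBA rat 1 (median 0.08). Agtr1a, the angiotensin II receptor, was at 3.10, 2.02 and 1.38 CPM against 6.25, 3.53 and 4.82 CPM (1.17, SE 0.37).

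The contractile and calcium genes differed little as lists. Of 18 sarcomere genes tested, 6 were higher and 12 lower, with a median of -0.12. An unadjusted p under 0.05 was reached by 2 lower ones (11.1% against 2.73% of all genes tested). Actc1, cardiac α-actin, was at 7287, 7009 and 7399 CPM in the HF rats and 6184, 5286 and 5153 CPM with BAIBA (-0.38, SE 0.12). Myom2, an M-band protein, was at 3242, 3902 and 3898 CPM against 1702, 2659 and 3033 CPM (-0.58, SE 0.21). The groups did not overlap in either. Tnni3, cardiac troponin I, went the other way at 2812, 2809 and 2688 CPM against 2872, 3494 and 3322 CPM (0.22, SE 0.11), also without overlap. Over the whole list the groups did not overlap in 2 higher and 3 lower genes (11.1% and 16.7%). Of all genes tested, 6.01% were higher and 5.37% lower without overlap. Of 17 calcium handling genes, 7 were higher and 10 lower (median -0.04). Slc8a1, the sodium-calcium exchanger, had a log2 fold change of -0.46 (SE 0.19) with overlapping groups.

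Potassium and sodium channel genes were more often higher than lower, 16 of 23 (69.6%, median 0.07). At an unadjusted p under 0.05 there were 4 higher and 1 lower (17.4% and 4.35%, against 2.81% and 2.73% of all genes tested). Kcnj8, the pore of an ATP-sensitive potassium channel, was at 30.4, 37.1 and 33.5 CPM in the HF rats against 41.9, 43.4 and 41.9 CPM (0.33, SE 0.11). Scn4b, a sodium channel subunit, had a log2 fold change of 0.57 (SE 0.18) with 1 BAIBA rat within the HF range. Kcna4, a pore of the transient outward current that is raised in immature and failing ventricle, was lower, at 4.93, 5.64 and 7.04 CPM against 2.45, 4.04 and 3.38 CPM (-0.84, SE 0.26). The Sham rats, at 5.65, 6.03 and 3.02 CPM, overlapped the HF rats in Kcna4. Among gap junction and intercalated disc genes, 5 of 18 were higher and 13 lower (median -0.13), and Dsc2, a desmosomal cadherin, was higher in every BAIBA rat (14.05, 18.0 and 16.2 CPM against 20.6, 23.0 and 20.3 CPM).

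Cardiac transcription factors were lower more often than higher, with 15 lower and 8 higher of 23 and a median of -0.16. Of them 4 had an unadjusted p under 0.05, all lower (17.4% of the list against 2.73% of all genes tested). Irx3 and Irx5, homeobox factors that shape the gradient of repolarisation across the ventricular wall, were both lower. Irx5 was at 5.10, 15.5 and 7.52 CPM in the HF rats and 3.90, 3.72 and 1.87 CPM with BAIBA (-1.56, SE 0.47), and Irx3 at 6.02, 13.4 and 7.68 CPM against 2.40, 4.94 and 1.21 CPM (-1.67, SE 0.53). The Sham rats stood above the BAIBA rats in both, with Irx5 at 16.8, 14.6 and 8.86 CPM and Irx3 at 13.2, 13.3 and 7.22 CPM. Myocd, the coactivator of smooth muscle and cardiac genes, was at 33.1, 60.7 and 53.4 CPM against 29.9, 28.2 and 28.3 CPM (-0.77, SE 0.21). Gata4, a central cardiac factor, was at 76.1, 77.8 and 90.7 CPM against 72.2, 64.9 and 67.9 CPM (-0.26, SE 0.11). Each of these genes was lower in all 3 BAIBA rats than in any HF rat, and each had an adjusted p of 0.851 by edgeR. Over the whole list the groups did not overlap in 5 lower and 2 higher genes (21.7% and 8.7%). Of all genes tested, 5.37% were lower and 6.01% higher without overlap.

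The lists of energy metabolism had medians near 0 in the 6 rats, but some counts turned when 1 rat was left out. For fatty acid uptake and oxidation, 15 of 28 genes were higher and 13 lower, with a median of 0.01. Of the lower ones 2 had an unadjusted p under 0.05 (7.14% of the list against 2.73% of all genes tested). Without HF rat 1 the count was 6 higher and 22 lower (median -0.12), and without both HF rat 1 and BAIBA rat 1 it was 7 and 21 (median -0.07). Slc27a1, a fatty acid transporter, was at 79.1, 110.0 and 124 CPM in the HF rats against 71.2, 72.9 and 78.0 CPM (-0.50, SE 0.16), and Mgll, which splits monoacylglycerol, had a log2 fold change of -0.53 (SE 0.21). For glucose uptake, glycolysis and glycogen, 14 of 30 were higher (median -0.06), against 18 without BAIBA rat 1 (median 0.03). Hk2, the muscle hexokinase, was higher in every BAIBA rat, at 119.9, 81.0 and 86.6 CPM against 131, 135 and 151 CPM (0.53, SE 0.16), and Slc2a4, the insulin-responsive glucose transporter, had a log2 fold change of 0.38 (SE 0.17) with overlapping groups. Pfkfb3 and Pfkfb2, which set the level of a glycolytic activator, differed in opposite directions at -0.34 (SE 0.13) and 0.51 (SE 0.22).

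In the mitochondrial lists no gene of complex I (34 tested, 8 higher, median -0.05), of complexes II to V (39 tested, 16 higher, median -0.03) or of the mitochondrial genome (13 tested, 3 higher, median -0.07) had an unadjusted p under 0.05. Without BAIBA rat 1, 8 of the 13 genes of the mitochondrial genome were higher (median 0.02). For pyruvate entry and the TCA cycle, 12 of 29 were higher (median -0.01), against 19 without BAIBA rat 1 (median 0.03). Pdp1, which activates pyruvate dehydrogenase, was at 83.8, 94.2 and 99.7 CPM in the HF rats and 108, 106 and 143 CPM with BAIBA (0.36, SE 0.14). Of 25 genes of mitochondrial biogenesis, fusion and fission, 11 were higher (median -0.02), against 13 without HF rat 1 (median 0.01). Mff, a fission factor, was at 0.803, 1.29 and 0.794 CPM against 1.34, 4.30 and 31.6 CPM, and at 28.5 CPM in 1 Sham rat, so single rats of the BAIBA and Sham groups were high.

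Genes of BAIBA and branched-chain amino acid metabolism showed a few members on either side. Of 31 listed, 26 were tested, with 12 higher and 14 lower (median -0.03), against 14 higher and 12 lower without BAIBA rat 1 (median 0.03). Bckdhb, a subunit of the branched-chain keto acid dehydrogenase that commits valine, leucine and isoleucine to breakdown, was at 106, 103 and 109 CPM in the HF rats and 132, 129 and 138 CPM with BAIBA (0.32, SE 0.09). The groups did not overlap, and Bckdk, the kinase that inhibits the same enzyme, was also higher at 97.0, 103 and 108 CPM against 129, 118 and 113 CPM. Slc36a1, a transporter of small amino acids, was at 7.40, 7.36 and 7.20 CPM against 5.97, 5.45 and 5.13 CPM (-0.41, SE 0.17). Slc6a6, the transporter of taurine and β-amino acids, was at 22.1, 77.2 and 77.1 CPM against 27.7, 23.2 and 22.8 CPM (-1.26, SE 0.46), so HF rat 1 lay with the BAIBA rats. Without HF rat 1 its log2 fold change was -1.65 and edgeR called it (adjusted p = 0.0393). The Sham rats stood at 23.4, 27.6 and 29.5 CPM and the HFE rats at 16.04, 29.0 and 27.5 CPM, in the range of the BAIBA rats. The receptor Mrgprd (0 to 0.184 CPM), and Agxt2 (0 to 0.128 CPM) and Abat (0.192 to 1.04 CPM), which degrade BAIBA, were too low to be tested, which, as with the genes near 0 above, does not show that they were absent.

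Of 28 genes of AMP-activated kinase (AMPK) and energy sensing, 11 were higher and 17 lower (median -0.04), and the groups did not overlap in 3 higher and 3 lower (10.7% each, against 6.01% and 5.37% of all genes tested). The regulatory subunits differed in opposite directions. Prkab1 was at 63.5, 52.8 and 60.6 CPM in the HF rats and 65.6, 81.4 and 74.2 CPM with BAIBA (0.32, SE 0.12). Prkag1 was at 204, 190.2 and 223 CPM against 162, 171 and 185 CPM (-0.26, SE 0.11), and Prkag2 at 34.2, 37.7 and 35.2 CPM against 30.3, 31.2 and 22.4 CPM (-0.35, SE 0.15). Phosphorylation of the kinase, by which it is switched on, is not read by RNA-seq.

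In the insulin, IGF and FoxO list, 9 of 25 genes were higher and 16 lower (median -0.13), with 1 higher and 4 lower at an unadjusted p under 0.05 (of all genes tested, 2.81% were so higher and 2.73% lower). Igf1r, the IGF-1 receptor, was at 6.88, 8.47 and 9.64 CPM in the HF rats and 3.74, 5.003 and 5.73 CPM with BAIBA (-0.79, SE 0.23), and its ligand Igf1 was at 38.9, 34.4 and 22.8 CPM against 90.5, 38.4 and 94.9 CPM (1.22, SE 0.38). The receptor was lower in every BAIBA rat, while the ligand was high in BAIBA rats 1 and 3 and within the HF range in rat 2. Ccng2, a FoxO target that slows the cell cycle, was at 31.6, 32.1 and 36.9 CPM against 26.7, 27.8 and 26.1 CPM. Txnip, which restrains glucose uptake and binds thioredoxin, was at 432, 994 and 1115 CPM against 377, 568 and 458 CPM (-0.86, SE 0.35), with HF rat 1 in the range of the BAIBA rats.

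Of the circadian clock genes, 9 of 19 were higher and 10 lower (median -0.01), against 10 and 9 without HF rat 1 (median 0.04), with Arntl and Clock lower and Per2 and Tef higher. Arntl, named Bmal1 in current annotation, encodes the partner of Clock that drives the E-box genes of the clock. It was at 5.50, 10.9 and 8.37 CPM in the HF rats and 1.84, 3.14 and 2.05 CPM with BAIBA (-1.82, SE 0.33, adjusted p = 0.626 by edgeR and 0.00183 by DESeq2). Every BAIBA rat was below every HF rat, the Sham rats lay at 4.67, 3.18 and 2.76 CPM, and the HFE rats ranged from 3.86 to 17.7 CPM. Clock itself was at 39.6, 62.1 and 46.1 CPM against 35.2, 40.7 and 35.9 CPM (-0.40, SE 0.17). Per2, a repressor of the pair, was at 81.5, 51.3 and 83.5 CPM against 84.8, 105 and 99.1 CPM (0.41, SE 0.19), and Tef, an output factor that binds D-boxes, at 172, 121 and 143 CPM against 191, 167 and 221 CPM (0.41, SE 0.16). The groups overlapped in Clock and Tef but not in Per2. The time of day at which each heart was taken is not given in the sources used here, and its part in these values was not tested.

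The promoters of the 3 clock genes are shown because each holds a short motif of the clock within the 250 bases before its start. They are RefSeq sequences of build GRCr8, with the motif in capitals. In Bmal1 it is AGGTCA, the receptor site of ROR and REV-ERB receptors, in Tef the E-box CACGTG, and in Per2 the D-box TTATGTAA, searched on both strands.
Bmal1, chr1:176766078-176766327, plus strand: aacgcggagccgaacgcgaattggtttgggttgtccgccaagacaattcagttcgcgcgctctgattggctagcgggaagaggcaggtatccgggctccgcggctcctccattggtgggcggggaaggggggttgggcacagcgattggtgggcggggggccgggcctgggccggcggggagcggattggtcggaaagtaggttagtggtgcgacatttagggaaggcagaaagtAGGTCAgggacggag
Tef, chr7:115206577-115206826, plus strand: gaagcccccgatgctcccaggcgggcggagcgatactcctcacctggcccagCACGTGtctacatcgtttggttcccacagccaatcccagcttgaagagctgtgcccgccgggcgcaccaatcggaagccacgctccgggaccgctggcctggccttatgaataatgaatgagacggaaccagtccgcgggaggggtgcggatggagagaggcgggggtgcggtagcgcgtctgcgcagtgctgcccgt
Per2, chr9:99496994-99497243, minus strand: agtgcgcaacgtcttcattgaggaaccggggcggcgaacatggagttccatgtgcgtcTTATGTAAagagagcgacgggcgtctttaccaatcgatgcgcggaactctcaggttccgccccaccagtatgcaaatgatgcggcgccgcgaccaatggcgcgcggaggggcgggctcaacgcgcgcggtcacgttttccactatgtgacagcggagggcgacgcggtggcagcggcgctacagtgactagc
The motifs start 15, 198 and 192 bases before the start of Bmal1, Tef and Per2. The receptor site stands in 14.1% of all 33469 promoters of that length, the E-box in 5.59% and the D-box in 0.828%. Of the 19 clock genes tested, 17 matched the promoter table by symbol, and 3 of these held the receptor site, 4 the E-box and 1 the D-box. A match describes the letters and does not show a site in use.

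Genes of the endoplasmic reticulum (ER) stress and ATF4 response were higher in 19 of 28 (67.9%, median 0.04), and the groups did not overlap in 6 of them, all higher (21.4% against 6.01% of all genes tested). Without HF rat 1 the median was 0.14, with 20 of 28 higher. Xbp1, a transcription factor of the unfolded protein response, was at 32.9, 31.9 and 35.01 CPM in the HF rats and 42.9, 42.2 and 43.4 CPM with BAIBA (0.36, SE 0.09, adjusted p = 0.851 by edgeR). The rats of each group lay within a narrow band, and the log2 fold change ran from 0.33 to 0.40 over the alternatives. Atf4, which is translated under stress, was at 100.2, 100.4 and 113 CPM against 124, 129.5 and 119.6 CPM (0.25, SE 0.10), and its target Ddit3 at 32.7, 24.7 and 35.5 CPM against 41.4, 38.3 and 39.7 CPM (0.36, SE 0.15). Manf, a secreted ER stress factor, was at 24.4, 20.5 and 27.3 CPM against 30.1, 30.1 and 28.6 CPM.

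The promoter of Xbp1 is shown for its ER stress response element, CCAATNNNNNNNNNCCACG, in capitals, which starts 65 bases before the start (RefSeq, build GRCr8).
Xbp1, chr14:84604373-84604622, plus strand: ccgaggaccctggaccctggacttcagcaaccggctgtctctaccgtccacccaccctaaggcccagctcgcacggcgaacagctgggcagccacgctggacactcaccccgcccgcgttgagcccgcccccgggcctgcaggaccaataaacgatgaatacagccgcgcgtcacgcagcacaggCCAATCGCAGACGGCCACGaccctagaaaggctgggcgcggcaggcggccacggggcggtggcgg
The element was found on either strand in 22 of the 33469 promoters (0.0657%). It stood in 7 of the 23 promoters matched to the 28 list members tested, those of Calr, Canx, Creld2, Dnajc3, Hsp90b1, Hspa5 and Xbp1. As with the clock motifs, a match describes the letters only.

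Of 20 heat shock and chaperone genes 13 were lower (median -0.06), and Hspb6, a small heat shock protein of muscle, was at 1091, 1254 and 1349.5 CPM in the HF rats against 988, 1008 and 964 CPM (-0.32, SE 0.12). Of 29 regulators of apoptosis 21 were lower and 8 higher (median -0.10). Of the lower ones 2 had an unadjusted p under 0.05 (6.9% of the list against 2.73% of all genes tested). Casp8, the initiator caspase of death receptors, was at 12.2, 8.53 and 7.52 CPM against 6.80, 6.67 and 5.37 CPM (-0.59, SE 0.23), and Apaf1, the scaffold of the apoptosome, at 16.7, 12.1 and 13.2 CPM against 11.8, 10.2 and 8.74 CPM (-0.45, SE 0.18). Both were highest in HF rat 1, and without that rat they were at -0.35 and -0.30. Of 27 Nrf2 target, glutathione and thioredoxin genes, 12 were higher (44.4%, near the 48.1% of all genes tested, with a median of -0.04), and Gstt3, a glutathione transferase, was at 6.08, 2.64 and 2.01 CPM against 8.48, 7.18 and 8.201 CPM (1.15, SE 0.40). Of 30 autophagy and proteolysis genes, 12 were higher (median -0.04, and 15 without BAIBA rat 1 at a median of -0.01) and none had an unadjusted p under 0.05.

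Scar and matrix genes were higher with BAIBA in the main as far as BAIBA rat 1 was included. Of 21 scar and activated fibroblast genes, 19 were higher and 2 lower (median 0.46), none at an unadjusted p under 0.05, and without BAIBA rat 1 the count was 12 higher and 9 lower (median 0.05). Meox1, a factor of fibroblast activation, was at 1.66, 1.902 and 0.847 CPM in the HF rats and 3.18, 2.25 and 2.53 CPM with BAIBA. Sfrp2, a secreted Wnt modulator, was at 6.36, 2.64 and 1.38 CPM against 18.7, 3.01 and 10.5 CPM (1.64, SE 0.79) and at 0.97 without BAIBA rat 1. Mgp, an inhibitor of calcification, was at 144, 133 and 203 CPM against 326, 179 and 217 CPM. Activated fibroblast, mesothelial and macrophage markers were highest in that same rat, as given above, and their part in these counts was not tested.

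Of 29 collagen and matrix assembly genes, 21 were higher (median 0.12), and 13 were higher without BAIBA rat 1 (median -0.01) and 14 without HF rat 1. Col6a2, a chain of microfibrillar collagen VI, was higher in every BAIBA rat, at 128, 121 and 126 CPM in the HF rats and 158, 156 and 165 CPM with BAIBA (0.36, SE 0.09). Col4a2, a chain of basement membrane collagen, was lower, at 161, 256 and 242 CPM against 124, 152 and 161 CPM (-0.60, SE 0.19). Of 21 matrix proteases and inhibitors, 12 were higher and 9 lower (median 0.29), and the median was 0.08 without BAIBA rat 1. Adamts1, a protease of versican, was at 61.6, 74.4 and 100.2 CPM against 41.4, 48.0 and 43.8 CPM (-0.83, SE 0.18), with a DESeq2 adjusted p of 0.0208 at a fold below the limit. Adamts15, of the same family, was at 10.6, 13.4 and 12.02 CPM against 25.1, 13.5 and 25.9 CPM (0.84, SE 0.25). In the TGF-β and BMP list, 17 of 27 were higher (median 0.09), while Tgfbr2, the ligand-binding TGF-β receptor, was lower in every BAIBA rat, at 50.3, 58.0 and 66.7 CPM against 37.5, 44.8 and 46.5 CPM (-0.44, SE 0.14).

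The immune lists lay higher with BAIBA, again with BAIBA rat 1 as the highest library. Of 20 class II and complement genes, 18 were higher (median 0.42), against 12 higher without BAIBA rat 1 (median 0.08). With all 6 rats, 2 of the 20 were higher at an unadjusted p under 0.05, as were 2.81% of all genes tested. Serping1, the C1 inhibitor of complement, was at 57.4, 51.7 and 79.2 CPM in the HF rats and 139, 83.6 and 87.6 CPM with BAIBA (0.72, SE 0.25). It was higher in all 3 BAIBA rats than in any HF rat, and without BAIBA rat 1 its log2 fold change was 0.45. Of 27 chemokine and cytokine genes, 19 were higher (median 0.34), against 12 without BAIBA rat 1 (median -0.07). Il33, an alarmin of stromal cells, was at 32.7, 19.2 and 24.8 CPM against 34.4, 31.2 and 50.7 CPM, and Cxcr4, a chemokine receptor, lower at 21.8, 18.7 and 18.0 CPM against 15.7, 12.3 and 16.5 CPM. Of 35 interferon response genes, 27 were higher (median 0.19), against 19 without BAIBA rat 1 (median 0.01). Ifit2, an antiviral effector, was at 51.8, 42.1 and 56.9 CPM against 70.4, 64.0 and 63.4 CPM (0.39, SE 0.13).

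Cell cycle genes were lower in 32 of 33 (median -0.81), with 3 at an unadjusted p under 0.05 (9.09% against 2.73% of all genes tested). Bub1b, a spindle checkpoint kinase, was at 7.05, 0.736 and 1.17 CPM in the HF rats against 0.725, 0.449 and 0.482 CPM, and Cenpf, of the kinetochore, at 12.2, 2.33 and 2.01 CPM against 1.84, 1.35 and 1.63 CPM. In both, HF rat 1 was far above the other 5 rats. Without it, 13 of the 33 were higher and 20 lower (median -0.06), with none at an unadjusted p under 0.05. HF rat 1 was also the library with the developing T cell genes, whose part in the cell cycle levels was not tested.

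Vessel genes were mixed, with 14 of 32 angiogenesis and endothelial genes higher (median -0.09), and 18 higher without BAIBA rat 1 (median 0.05). In 6 higher genes and no lower one the groups did not overlap (18.8% of the list against 6.01% of all genes tested). Sox17, an arterial endothelial factor, was at 17.8, 14.1 and 15.8 CPM in the HF rats and 19.97, 24.2 and 23.9 CPM with BAIBA (0.51, SE 0.14). Hey2, a Notch target of arteries and ventricle, was at 8.94, 9.88 and 8.47 CPM against 15.8, 12.6 and 11.2 CPM, and Ednra, the endothelin receptor of smooth muscle, at 55.0, 46.2 and 45.9 CPM against 65.0, 59.5 and 60.4 CPM. Of 28 lipid and cholesterol synthesis genes, 14 were higher and 14 lower (median -0.01), and 3 of the higher ones had an unadjusted p under 0.05 (10.7% against 2.81% of all genes tested). The even split rested on the number-1 rats, as 19 were higher and 9 lower without HF rat 1 (median 0.17), and 9 higher and 19 lower without BAIBA rat 1 (median -0.11). Agpat2, of phospholipid and triglyceride synthesis, was at 15.3, 12.6 and 13.1 CPM against 21.9, 19.2 and 18.2 CPM (0.53, SE 0.14), and Nr1h3, the liver X receptor α that senses sterols, at 7.97, 7.36 and 8.79 CPM against 11.4, 11.995 and 11.0 CPM (0.51, SE 0.15). Nampt, the first enzyme of NAD salvage, was at 145, 134 and 147 CPM against 169, 154 and 206 CPM (0.31, SE 0.13).

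Of 45 ribosomal protein genes, 37 were higher (82.2%, median 0.12), against 18 of 45 without BAIBA rat 1 (median -0.01). Rpl7a was at 147, 111 and 4.98 CPM in the HF rats and 5.97, 6.86 and 4.82 CPM with BAIBA, so HF rat 3 was in the range of the BAIBA rats. Its Sham levels were 6.23, 6.29 and 5.71 CPM and 1 HFE rat stood at 63.3 CPM, so high and low rats occurred in the exercised group too. Ribosomal protein genes have many near-identical copies among which reads can be split, so these levels are uncertain. The hypoxia list (14 of 22 higher, median 0.04), the glucocorticoid list (11 of 18 higher, median 0.16), the ketone, creatine and adenine nucleotide list (13 of 27 higher, median -0.01, and 14 without BAIBA rat 1) and the immediate early genes (8 of 26 higher, median -0.15) complete the 38 lists. The immediate early genes stood at 15 of 26 higher and a median of 0.10 without HF rat 1.

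**Figure D5:**
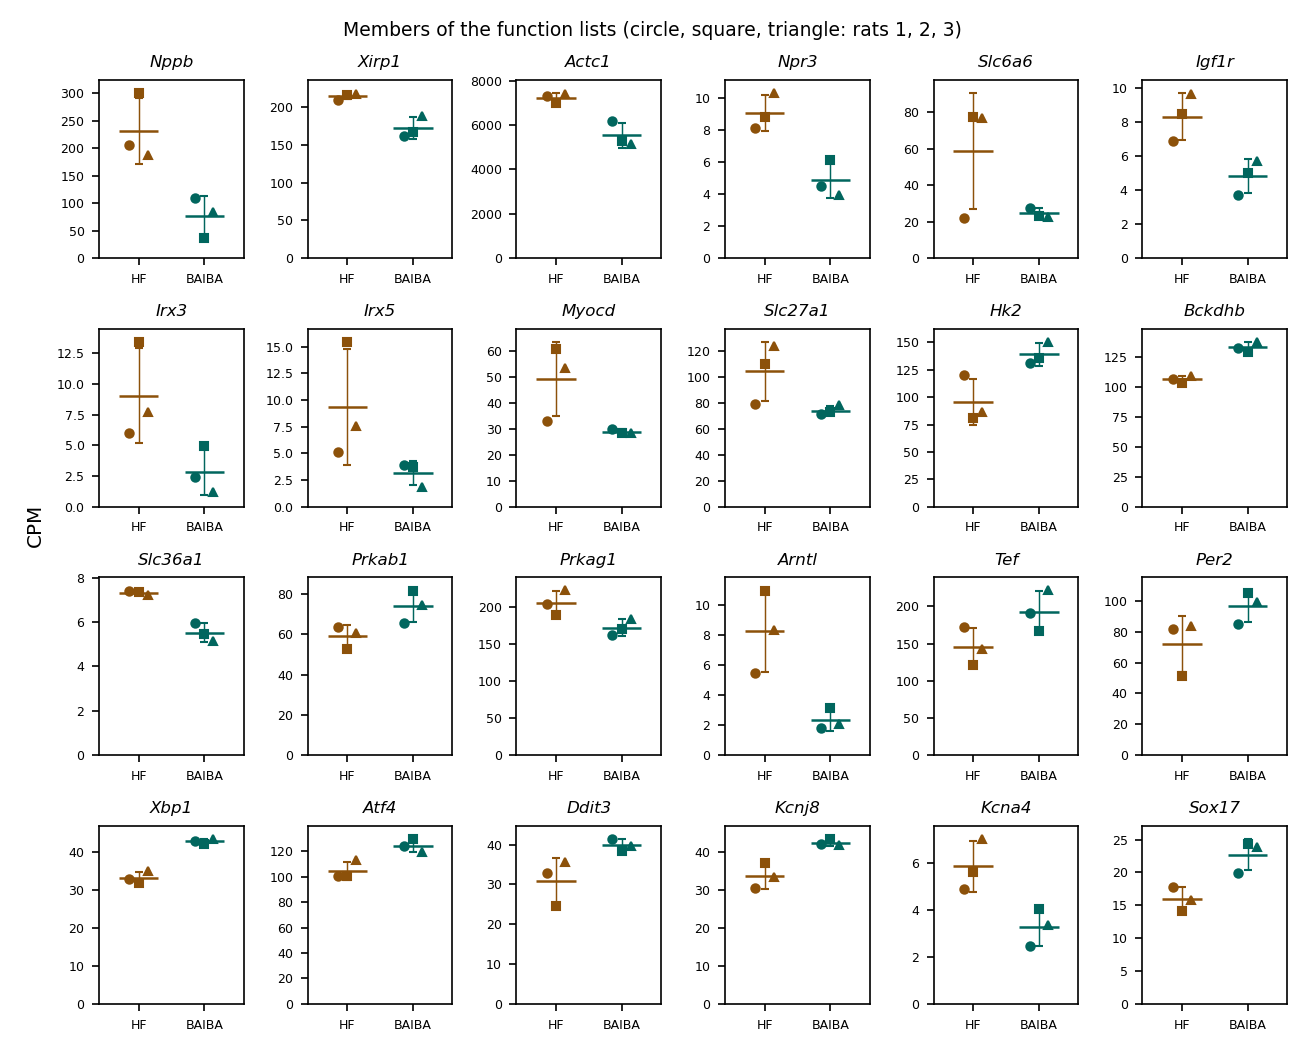
Level in CPM of 24 members of the function lists, 1 point a rat, with the mean (long bar) and SD (error bars) of 3 rats, HF in brown and BAIBA in green. Xbp1 and Bckdhb show narrow groups that do not overlap, and in Slc6a6 HF rat 1, at 22.1 CPM, lies with the BAIBA rats.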

How the data were processed

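Left ventricular RNA of 12 rats was sequenced, and the 3 BAIBA and 3 HF rats were compared here. The authors trimmed the reads, aligned them with HISAT2, assembled transcripts with StringTie and counted reads per gene with featureCounts, and the deposited table holds these raw counts of 34700 genes, some of them newly assembled and without a symbol. The submitters' processing notes name the mouse build mm9, whereas the gene identifiers are those of rat; the rat build and the tool versions are not given in the sources used here. The deposited FPKM values, which the authors computed from counts and gene length, and the authors' columns of comparisons (fold changes and p-values) were not used. The gene symbols come from the deposited annotation.

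Genes were tested with edgeR 4.0.16 in R 4.3.3 (TMM, filterByExpr, robust quasi-likelihood fit) on the counts of the 6 rats, with Benjamini-Hochberg adjustment over 15039 genes. Calls needed an adjusted p under 0.05 together with a log2 fold change above 1 in size. For single genes log2(CPM + 0.1) was permuted exactly over the rats (two-sided). DESeq2 1.42.0, RLE factors, library size alone, other filters, all 12 rats, a replicate block and leaving out each rat were the alternatives. The scripts were tested on simulated data. The labels do not say more of the rats than their group and number, so p-values measure the spread between these samples.

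The genes named are the 12 higher and 12 lower genes of smallest p with a mean of at least 1 CPM and no overlap between the groups, those called by DESeq2, and up to 4 members of each function list by p. Tma7, Myh7 and Mir208b were left out of that rule, and a few genes that it names are not reported here. Marker genes and genes near 0 were named after their values were seen. The members, lists and tests were chosen with earlier results of these data known, and the developing T cell list and the fit of 2 rats against 2 were chosen after seeing the data. Lists were described by counts and medians with no test. Promoters, 250 bases before each start, were RefSeq sequences of GRCr8 matched by symbol.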

Additional observations from a re-analysis of the deposited data

How the results depend on the processing

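With 3 rats a group, only large and even differences can pass the adjustment, and 0 calls do not show that the groups were alike. DESeq2 called 11 genes higher and 18 lower, against 0 and 0 by edgeR. Of the genes lower with BAIBA, edgeR called 2 with no filter beyond 1 count (Tma7 and Ncbp2), 1 where every library needed at least 10 counts (Tma7) and 1 in the fit of all 12 rats (Myh7). Leaving out 1 rat gave 0 to 1 genes higher and 0 to 3 lower. Without HF rat 1 the lower ones were Phlda1, Slc41a3 and Slc6a6, and without HF rat 3 they were Rpl7a and Tma7. With HF rat 1 and BAIBA rat 1 both left out, a setting chosen after seeing the data, 2 were lower, Nppa at -5.44 and Slc6a6 at -1.74. RLE factors and library size alone called none. The counts at an unadjusted p under 0.05 ran from 305 to 587 higher and from 332 to 602 lower when 1 rat was left out, and all 12 rats gave 631 higher and 701 lower.

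The same-numbered rats of the groups did not deviate together (correlations of 0.15, 0.05 and -0.07 for numbers 1, 2 and 3), so the numbers were not taken as pairs. With the replicate block edgeR called 0 genes (lowest adjusted p = 0.221), with 449 higher and 494 lower at an unadjusted p under 0.05. None of the 176 named genes changed sign under any alternative that could fit it. These genes were chosen in the same data by no overlap, a DESeq2 call or small p, so the kept signs were largely fixed by the choice. Of 532 list medians under the alternatives, 17 moved by more than the SD between rats. Those moved by leaving out HF rat 1 or BAIBA rat 1 alone are given in the text above. Leaving out HF rat 2 moved calcium handling from -0.04 to 0.02, the circadian clock from -0.01 to 0.20 and gap junctions from -0.13 to 0.01, and leaving out HF rat 3 moved heat shock from -0.06 to 0.07. With HF rat 1 and BAIBA rat 1 both left out, matrix proteases moved from 0.29 to -0.01, the TGF-β and BMP list from 0.09 to 0.02 and the renin-angiotensin list from -0.07 to 0.04.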

Other observations

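Levels in the Sham and HFE rats, which entered no test here, were set beside those of the leading genes. Both groups are set beside the same HF and BAIBA rats, so the comparisons share those rats. Slc6a6 stood at 16.04 to 29.5 CPM in the 9 rats of the Sham, HFE and BAIBA groups and at 22.1, 77.2 and 77.1 CPM in the HF rats. Txnip stood at 351, 398 and 417 CPM in the Sham rats and 286, 416 and 468 CPM in the HFE rats, against 432, 994 and 1115 CPM in the HF rats. In both genes HF rats 2 and 3 were the highest of all 12 rats.

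Other genes had their lowest levels in the BAIBA rats. Slc41a3 was at 34.9 to 58.8 CPM in the Sham rats and 57.9 to 80.5 CPM in the HFE rats, against 24.9 to 29.2 CPM with BAIBA. Myocd was at 62.8, 41.5 and 36.2 CPM in the Sham rats and 48.7, 54.0 and 56.1 CPM in the HFE rats, against 28.2 to 29.9 CPM with BAIBA. Actc1 was at 6437, 6524 and 7526 CPM in the Sham rats and 8099.5, 8657 and 8439 CPM in the HFE rats, and all 3 BAIBA rats lay below all of these at 5153 to 6184 CPM. Dpep1 was highest in the BAIBA rats, at 15.95 to 25.1 CPM against 7.28 to 11.7 CPM in the other 9 rats, and Agtr1a was at 3.53 to 6.25 CPM against 1.38 to 3.10 CPM. These comparisons were chosen after their values were seen and were not tested.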
